A study of Mus musculus with 11 samples.

Results

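The Klf genes encode Krüppel-like factors, transcription factors of stomach and other tissues, and 10 of them were read here in ChIP-seq peak lists of mouse stomach glands: Klf2, Klf3, Klf4, Klf5, Klf6, Klf9, Klf10, Klf11, Klf13 and Klf15. The members were taken from a list of names, and all 10 were found among 21887 protein-coding genes. For each, every peak of 11 libraries was collected in the gene body plus 50 kb on each side. Peaks within 1 kb of the gene start were taken as promoter peaks. Regions with no protein-coding start inside that distance were taken as distal. Glands were wild type, or carried Atp4bCre and Rosa26NICD (NICD), or carried these with Arid1aflox/+ (1-allele) or with Arid1aflox/flox (2-allele). Atp4bCre places Cre recombinase under the promoter of a parietal cell gene, Rosa26NICD supplies the active intracellular part of Notch, and Arid1a encodes a subunit of the SWI/SNF chromatin remodeller. All groups except wild type therefore share Atp4bCre and NICD. H3K27ac, an acetylation mark of active promoters and enhancers, was read in 2 libraries of each of the 4 groups. H3K4me3, a methylation mark of promoters, was read in 1 wild-type, 1 NICD and 1 Arid1a-floxed library, and the labels of the last disagree on whether 1 or 2 alleles were floxed. Epithelial pellets were pooled, so replicate libraries may or may not stem from separate animals. Every p-value below speaks to the spread among libraries and no further.

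Krüppel-like factors bind CACCC and GC-rich sequence through zinc fingers at the end of the protein that the family shares, and they differ in the partners bound by the rest of the protein. Klf2, Klf4, Klf5 and Klf6 are mainly activators that work with acetyltransferases such as Ep300, Klf3 is a repressor that recruits Ctbp proteins, and Klf9, Klf10, Klf11 and Klf13 recruit the Sin3a co-repressor. In the gut, Klf5 is known from dividing epithelial cells and Klf4 from cells that have stopped dividing and differentiate.

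The promoter sequences of 4 members frame the results that follow, because Klf11 held the strongest promoter peak of the family, Klf3 the most GC boxes, Klf15 no promoter peak in the 2-allele libraries and Klf2 the fewest libraries with a call. Each runs 5′ to 3′ from 250 bases before the gene start to 50 after it on the gene's strand, from RefSeq on GRCm38.p6, and 8 of the 10 members matched that table, all but Klf5 and Klf10. Capitals mark CACCC as well as GGGCGG and also CCAAT, on either strand, and adjoining or overlapping matches run together. Klf11 lies at chr12:24651121-24651420 (plus strand), Klf3 at chr5:64803271-64803570 (plus strand), Klf15 at chr6:90462326-90462625 (plus strand) and Klf2 at chr8:72318812-72319111 (plus strand).
Klf11: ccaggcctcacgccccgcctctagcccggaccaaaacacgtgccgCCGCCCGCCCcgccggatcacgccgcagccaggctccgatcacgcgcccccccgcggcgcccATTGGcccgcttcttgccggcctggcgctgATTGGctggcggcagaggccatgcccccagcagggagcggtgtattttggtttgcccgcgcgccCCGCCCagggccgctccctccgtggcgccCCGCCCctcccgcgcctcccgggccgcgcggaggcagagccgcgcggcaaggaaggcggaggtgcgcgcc
Klf3: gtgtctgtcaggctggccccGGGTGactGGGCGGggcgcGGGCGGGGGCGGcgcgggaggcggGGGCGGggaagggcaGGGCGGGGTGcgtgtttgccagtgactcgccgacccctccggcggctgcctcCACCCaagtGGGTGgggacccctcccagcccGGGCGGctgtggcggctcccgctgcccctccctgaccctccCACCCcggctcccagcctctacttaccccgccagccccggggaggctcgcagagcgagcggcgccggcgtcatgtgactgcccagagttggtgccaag
Klf15: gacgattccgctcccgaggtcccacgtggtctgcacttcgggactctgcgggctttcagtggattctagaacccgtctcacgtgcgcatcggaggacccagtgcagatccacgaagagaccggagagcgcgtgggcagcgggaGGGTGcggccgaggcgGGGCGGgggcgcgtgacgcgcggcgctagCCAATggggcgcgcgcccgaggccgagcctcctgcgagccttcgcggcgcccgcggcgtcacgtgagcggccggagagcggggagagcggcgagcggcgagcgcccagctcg
Klf2: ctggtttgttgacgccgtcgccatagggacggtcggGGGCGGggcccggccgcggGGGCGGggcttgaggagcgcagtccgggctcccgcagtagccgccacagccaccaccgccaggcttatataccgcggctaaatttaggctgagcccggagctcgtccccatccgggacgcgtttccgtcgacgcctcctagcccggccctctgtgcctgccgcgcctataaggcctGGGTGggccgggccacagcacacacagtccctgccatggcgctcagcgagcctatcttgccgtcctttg

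The 8 member promoters were rich in G and C, from 63% in Klf6 to 77.7% in Klf11, against a median of 56.3% over 21263 promoters of the same length. The GC box GGGCGG, counted on both strands, stood in 7 of the 8, against 46.2% of all promoters. Klf3 had 6 and Klf4 and Klf11 4 each, and Klf9 had none. CACCC stood in 5 of the 8 (59.5% of all promoters), with 5 matches in Klf3 and none in Klf4, Klf6 or Klf11. CCAAT stood in 5 of the 8 (38.2%), with 4 matches in Klf6. CACGTG, a palindrome bound by basic helix-loop-helix proteins, stood in 4 of the 8 (7.84%), and 3 of the matches were in Klf15, at positions -228, -172 and -3 counted from the gene start. TATAAA (12.6% of all promoters), TGGGAA, the core of the Rbpj site through which NICD acts (24.5%), and TGACGTCA (2.23%) were not among these letters in any of the 8. These matches describe the windows and were not tested as binding sites.

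H3K27ac lists ran from 5165 and 7602 peaks in the 1-allele libraries to 41405 and 25442 in NICD, with 20590 and 18360 in wild type and 15362 and 14373 in the 2-allele libraries. The 6 libraries whose depth is stated had 7.96 M to 18.26 M tags, and for the 2-allele libraries the number of reads is unknown. A redundant rate of 0.52 set NICD replicate 2 apart, and the widest peaks of the 2-allele lists spanned 1774 and 1759 bp, against 3789 to 3875 bp in the others, so a group difference that involves them cannot be told apart from how those lists were made. Of 6 epithelial markers, 6 had an H3K27ac promoter peak in every wild-type and NICD library, 6 and 5 in the 2-allele and 3 and 2 in the 1-allele libraries. Of 6 parietal markers, 3 and 2 were called in wild type, none in NICD or 2-allele and 1 (Atp4b) in a 1-allele library, with Atp4a, Kcne2 and Slc26a7 called in no H3K27ac library. Fewer cells of a type and less mark per cell cannot be told apart in these bulk libraries. Of 7 blood markers, Ptprc was called in both NICD libraries and 2-allele replicate 1, Spi1 in NICD replicate 2 and 2-allele replicate 1, and none in wild type or 1-allele. Of 7 fibroblast and muscle markers at most 2 (Acta2 and Col1a1) were called in any H3K27ac library. Of 5 chief cell markers, 1 and 1 were called in wild type, 2 and 2 (Bhlha15 and Clps) in NICD and none in the 1-allele and 2-allele libraries. Of 3 neck cell markers, 1 and 1 were called in wild type, 3 and 1 in NICD, none in 1-allele and 1 and 1 in 2-allele, and of 4 surface pit markers 2 and 3, 3 and 1, 1 and 0, and 2 and 0. Of 6 endothelial markers none was called in any H3K27ac library. The part of cell mixture in the results below was not tested.

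H3K27ac marked the promoters of most members in every group. Promoter peaks were called for 10 and 9 of 10 members in wild type, 10 and 10 in NICD, 9 and 8 in 1-allele and 9 and 8 in 2-allele libraries, against 44.8% and 42.6%, 54.3% and 48.9%, 17.2% and 27.1%, and 44.4% and 42.7% of all protein-coding genes in the same order. Klf3, Klf4, Klf5, Klf6, Klf9, Klf10, Klf11 and Klf13, 8 of 10, were called in all 8 libraries, as were 14.4% of all genes. Only Klf2 and Klf15 missed a library. Strength is given below as the percentile of the strongest promoter peak within its own list, where 100 is the strongest peak. Ranks follow the authors' score in 6 of the H3K27ac lists and the order of the file in the 2-allele lists, which have no score, so every 2-allele percentile or rank below assumes that this order is one of strength. It orders peaks inside a list and is not an amount to compare between lists.

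**Figure D1:**
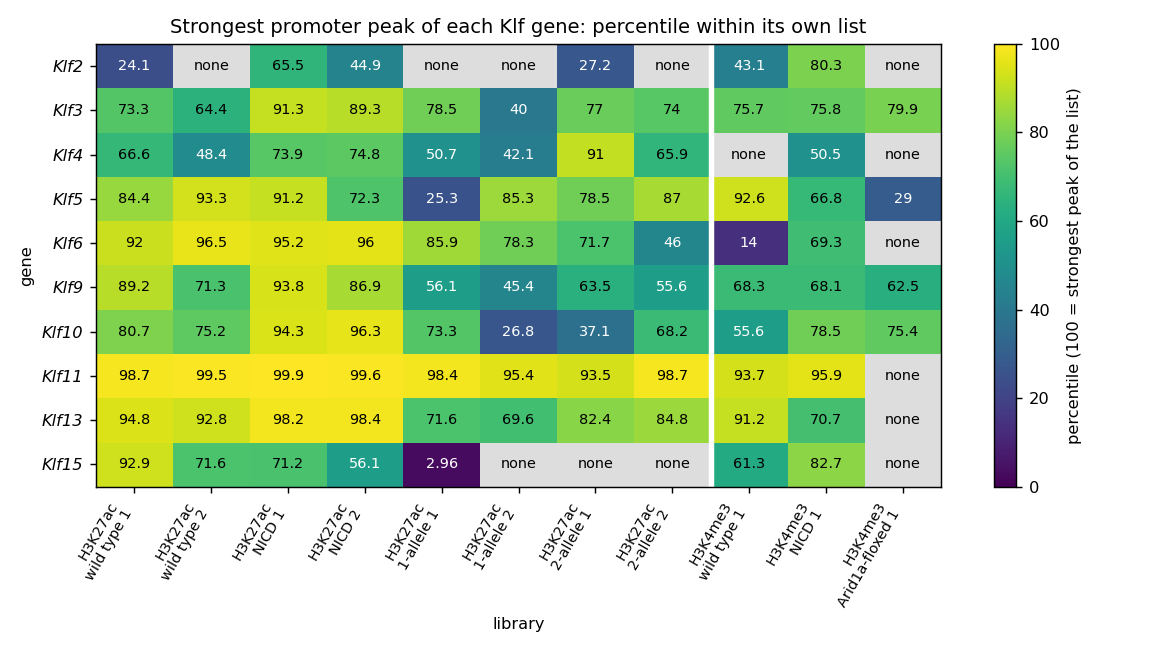
Percentile (colour and number, 100 = strongest peak of the list) of the strongest promoter peak of each of 10 Klf genes (rows) in 8 H3K27ac and 3 H3K4me3 libraries (columns), with grey for no promoter peak. Klf11 lies at or above 93.5 in all H3K27ac columns, while Klf15 is at 2.96 or uncalled in the last 4 of them and Klf2 is uncalled in 4.

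Among the activators, Klf2, known from endothelial cells under flow and from resting lymphocytes, was the least often marked. Its promoter (gene at chromosome 8, 72319062 to 72321654) was called in 4 of 8 H3K27ac libraries, at percentiles of 24.1 in wild-type replicate 1, 65.5 and 44.9 in NICD and 27.2 in 2-allele replicate 1. The 1-allele libraries had none. In NICD replicate 2 the called region lay upstream, from -535 to -244 bp of the start, while the other 3 libraries shared a region from -97 to 306 bp, so the calls were not all at the same place. Klf2 had no distal region in its window.

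Klf4 (chromosome 4, 55527137 to 55532475), which drives differentiation of epithelial cells and is also a reprogramming factor, was called in all 8 libraries. Percentiles were 66.6 and 48.4 in wild type, 73.9 and 74.8 in NICD, 50.7 and 42.1 in 1-allele and 91 and 65.9 in 2-allele glands. The peak that ranked strongest changed place: its middle lay 1051 and 978 bp past the start in wild type and 1125 and 963 bp past it in the 1-allele libraries, but at -510 and -433 bp in NICD and at -585 and -532 bp in the 2-allele libraries. The upstream region, from -902 to -269 bp, was called in both NICD, both 2-allele and wild-type replicate 1 (percentile 26.6), and in no 1-allele library. The downstream region, from 482 to 2520 bp, was called in all 8. Its percentiles in NICD were 69.7 and 52.2, so in NICD replicate 1 it ranked close to the upstream region at 73.9.

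Klf5 (chromosome 14, 99298691 to 99313412), a growth-promoting factor of dividing epithelium, was called in all 8 libraries at percentiles of 84.4 and 93.3 in wild type, 91.2 and 72.3 in NICD, 25.3 and 85.3 in 1-allele and 78.5 and 87 in 2-allele glands. The lowest value, 25.3, and a value within the range of the other groups, 85.3, came from the 2 libraries of the 1-allele group. Its start was not in the promoter table and was taken from the gene end that carried H3K4me3.

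Klf6 (chromosome 13, 5861489 to 5870393), a widely expressed factor with tumour suppressor activity, was called at percentiles of 92 and 96.5 in wild type, 95.2 and 96 in NICD, 85.9 and 78.3 in 1-allele and 71.7 and 46 in 2-allele glands. Its strongest peak lay upstream in all 8 libraries, with the middle between -564 and -491 bp. A second region from 117 to 2154 bp was called in all 6 libraries outside the 1-allele group and in none of that group.

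Klf3 (chromosome 5, 64803521 to 64832901), the Ctbp-recruiting repressor, was called at percentiles of 73.3 and 64.4 in wild type, 91.3 and 89.3 in NICD, 78.5 and 40 in 1-allele and 77 and 74 in 2-allele glands. A region from -32 to 1039 bp was called in all 8, and an upstream region from -967 to -414 bp in all but the 1-allele libraries.

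Among the members that recruit Sin3a, Klf11 ranked highest. Klf11 (chromosome 12, 24651371 to 24662782), induced by transforming growth factor beta, stood at percentiles of 98.7 and 99.5 in wild type, 99.9 and 99.6 in NICD, 98.4 and 95.4 in 1-allele and 93.5 and 98.7 in 2-allele glands. Its ranks were 278 and 87, 59 and 91, 83 and 354, and 993 and 185 in the same order. The authors' fold enrichment of that peak was 9.84 and 12.4 in wild type, 13.5 and 13.4 in NICD and 12.2 and 7.92 in the 1-allele lists, and it was the highest of the 10 members in each of these 6 lists. Klf13 (chromosome 7, 63886351 to 63938915), known for its part in lymphocyte and heart gene expression, stood at 94.8 and 92.8, 98.2 and 98.4, 71.6 and 69.6, and 82.4 and 84.8.

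Klf9 (chromosome 19, 23141226 to 23168129), induced by glucocorticoid and thyroid hormone, stood at percentiles of 89.2 and 71.3 in wild type, 93.8 and 86.9 in NICD, 56.1 and 45.4 in 1-allele and 63.5 and 55.6 in 2-allele glands. Klf10 (chromosome 15, 38291464 to 38300711), an early gene of transforming growth factor beta, stood at 80.7 and 75.2, 94.3 and 96.3, 73.3 and 26.8, and 37.1 and 68.2 in the same order. For Klf10 the libraries of the 1-allele group, and those of the 2-allele group, lay far apart. Its start too was taken from the gene end with H3K4me3.

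Klf15 (chromosome 6, 90461043 to 90491803), a regulator of amino acid and glucose metabolism induced by glucocorticoid, was called throughout wild type and NICD and in 1 of the 4 libraries with floxed Arid1a. Its promoter peak stood at percentiles of 92.9 and 71.6 in wild type and 71.2 and 56.1 in NICD. In the 1-allele libraries it stood at 2.96 in replicate 1, rank 5013 of 5165, and was not called in replicate 2. Neither 2-allele library held a peak anywhere in the Klf15 window. Of the 5 chief cell markers, Bhlha15 and Clps were also called in both NICD and no 2-allele library, as was Acta2 of the fibroblast and muscle markers. Unlike Klf15, Bhlha15 was called in no wild-type library, and Clps in wild-type replicate 2 but not replicate 1. Pgc was called in wild-type replicate 1 alone, and Pga5 and Lipf in no H3K27ac library. The part of cell mixture in the Klf15 result was not tested. The peak width was 646 and 743 bp in wild type, 792 and 731 bp in NICD and 220 bp in 1-allele replicate 1. The Klf15 start used here lies over 1 kb inside the annotated gene, and with the ends of the gene record used in its place Klf15 did not separate NICD from 2-allele.

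The design gives 4 comparisons. Setting NICD beside wild type asks about active Notch and Cre together, which cannot be told apart because no group carried Cre alone. The dosage of Arid1a is addressed by comparing the 1-allele and 2-allele groups with NICD and with each other. The comparisons share libraries and are not independent. An exact permutation test of 2 libraries against 2 cannot go below p = 0.333, so a promoter or region was counted as separating when called in both libraries of a group and neither of the other. Between NICD and wild type no member promoter separated in either direction, against 3.8% of all genes called in NICD and not wild type and 0.128% the other way. Of the members, Klf2 separated NICD from 1-allele (19.1% of genes), and none the other way (0.00457%). Klf15 separated NICD from 2-allele (3.71% of genes), and none the other way (0.0228%). No member separated 2-allele from 1-allele (12.2%) or the reverse (0.0366%). A share of 1 in 10 is a single gene, and for Klf2 it lies under the background.

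Leaving out a library loosens the rule, so these counts of 0 and 1 could stay or rise but not fall. A count that stayed therefore says nothing of stability. Rises were seen for Klf2 and Klf15. Without wild-type replicate 1, Klf2 separated NICD from wild type. Leaving out 1-allele replicate 1 made 2 members separate NICD from 1-allele, and leaving out 2-allele replicate 1 made 2 separate NICD from 2-allele, Klf2 and Klf15 in both cases. With 1-allele replicate 2 left out, Klf15 separated 1-allele from 2-allele, and with 2-allele replicate 2 left out, Klf2 separated 2-allele from 1-allele. Klf15 kept its pattern, called in both wild-type and both NICD libraries and in neither 2-allele library, when every list was cut to its 14373 strongest peaks, the length of the shortest list outside the 1-allele group. At 5165 peaks a list, the length of the shortest of all, Klf15 was called in wild-type replicate 1 and 1-allele replicate 1 alone.

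At those 5165 strongest peaks a list, promoters were called for 7 and 5 members in wild type, 7 and 6 in NICD, 9 and 7 in 1-allele and 6 and 6 in 2-allele libraries. Klf11 and Klf13 were called in all 8. Klf4 was called in both 1-allele and both 2-allele libraries and in no wild-type or NICD library, and Klf3 in every library but those of wild type. Klf2 was called in none. The order of the groups by members called thus changed with list length, since the 1-allele lists were the shortest in full. The shares of all genes given above are for the full lists. None is given at this length, so these counts and the Klf3 and Klf4 patterns describe the members alone.

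Peaks rarely covered the gene start itself. The base at the start lay inside a called peak in 0 of 10 and 0 of 9 called members in wild type, 4 of 10 and 1 of 10 in NICD, 0 of 9 and 0 of 8 in 1-allele and 2 of 9 and 2 of 8 in 2-allele libraries. Among all genes with a promoter peak the share was 15.7% and 18.2%, 54.5% and 33%, 10.1% and 24.2%, and 48.5% and 48%. In Klf3, Klf4, Klf6, Klf11 and Klf13 an upstream and a downstream region were separated by a gap. The start lay in that gap at Klf4 and Klf6, and at Klf3, Klf11 and Klf13 just inside the downstream merged region, although most libraries had no peak over it. Klf2 and Klf10 had separate upstream regions in 1 library alone, NICD replicate 2 at Klf2 and NICD replicate 1 at Klf10. The Klf10 start also lay in a gap, between -156 and 44 bp. At Klf13 the regions ran from -1002 to -306 bp and from -4 to 1060 bp and both were called in all 8 libraries. At Klf11 the upstream region, from -692 to -227 bp, was called in 4 libraries and the downstream, from -36 to 656 bp, in all 8.

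**Figure D2:**
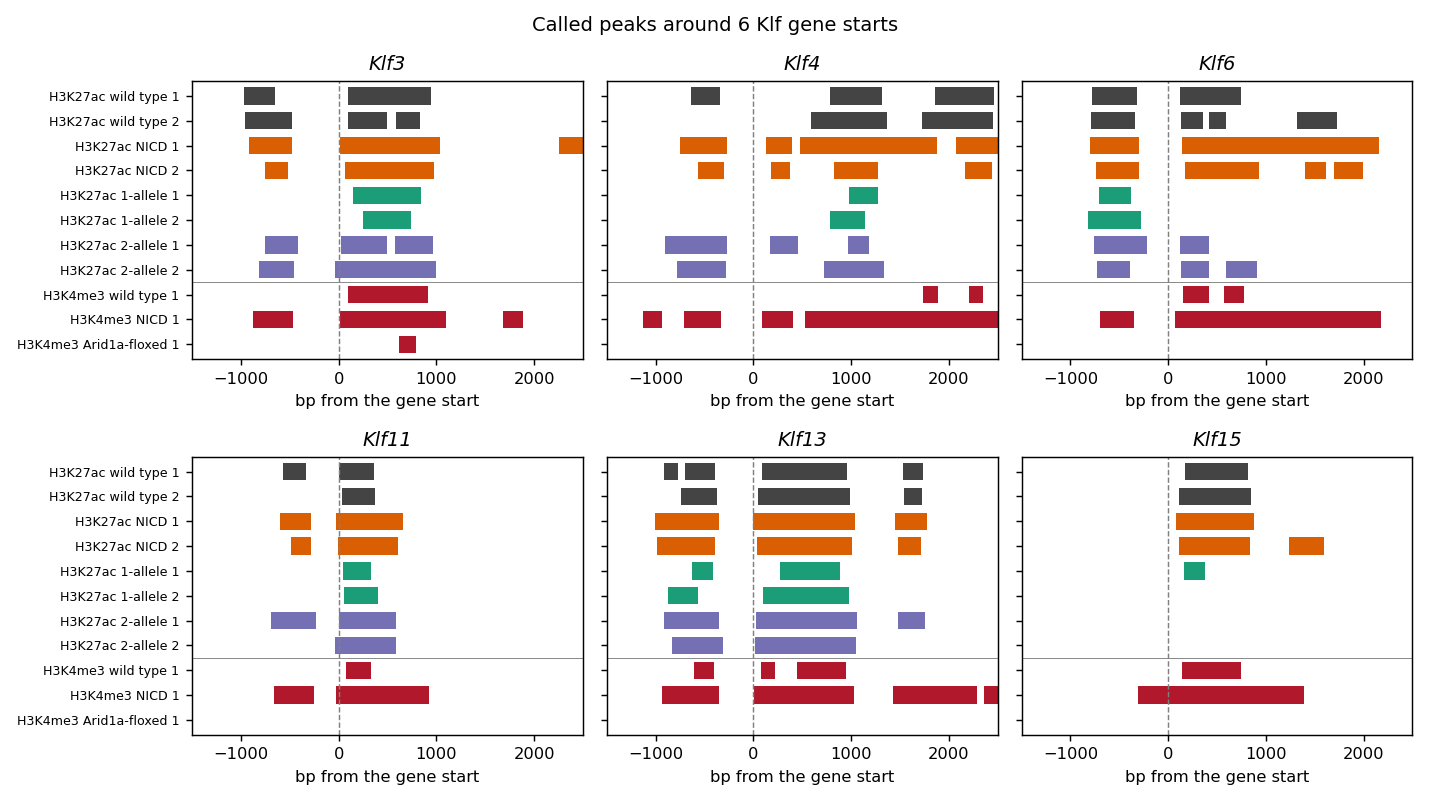
Called peaks (bars) around the starts of 6 Klf genes, in bp from the gene start with positive values in the direction of transcription, in each of 8 H3K27ac libraries and, in red, 3 H3K4me3 libraries. At Klf4 and Klf6 no H3K27ac bar crosses the start (dashed line), while some bars reach across it at Klf3, Klf11 and Klf13, and at Klf15 the 2-allele rows are empty.

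The 10 windows held 91 merged H3K27ac regions, of which 21 were at the members' own promoters, 68 were distal and 2 were at starts of neighbouring genes (Cys1 and Rrm2, beside Klf11). Of the distal regions 17 lay in the member's gene, 20 upstream and 31 downstream. Klf13 held 17 regions, Klf6 15 and Klf3 14, then Klf10 10, Klf15 8, Klf4 7, Klf11 7, Klf5 6, Klf9 4 and Klf2 3. Per 100 kb of window Klf6 came first with 13.8, before Klf13 with 11.1 and Klf3 with 10.8, and Klf2 and Klf9 were the sparsest with 2.92 and 3.15. Of the 91 regions 47 were called in 1 library, and 37 of these in NICD replicate 1 alone, the library with the longest list. Distal regions called numbered 15 and 15 in wild type, 58 and 28 in NICD, 2 and 2 in 1-allele and 8 and 10 in 2-allele libraries.

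**Figure D3:**
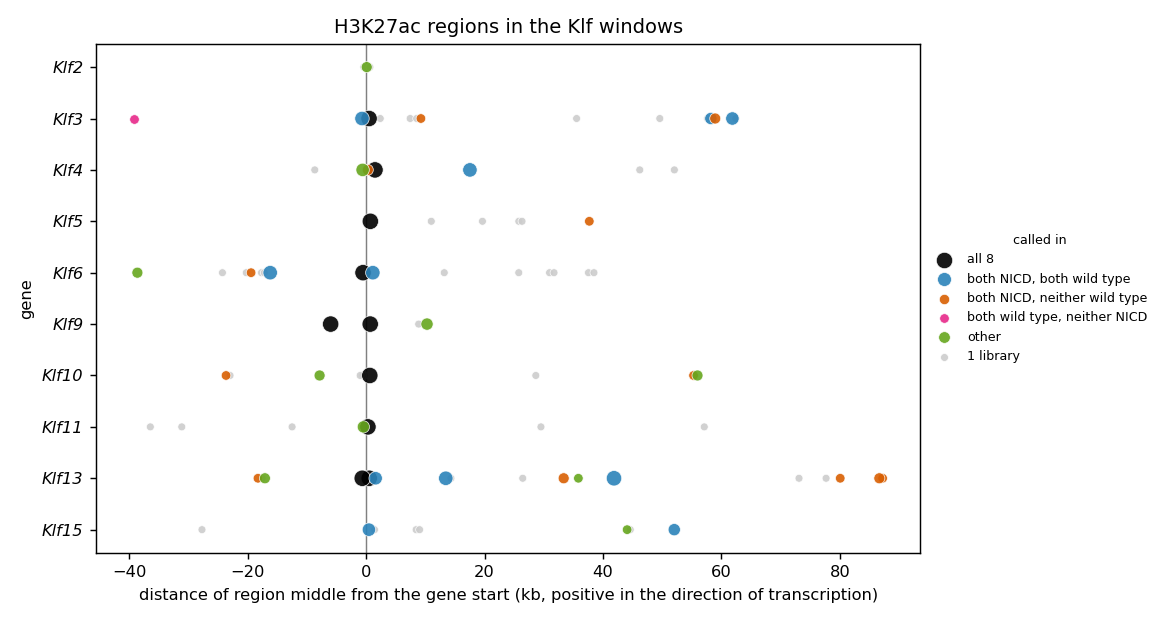
Middle of each of 91 merged H3K27ac regions as distance from the gene start (kb, positive in the direction of transcription), a row per Klf gene, with point size by the number of libraries and colour by the groups that called it. Black points, called in all 8 libraries, lie at gene starts except for 1 upstream of Klf9, and orange points (both NICD, neither wild type) are most numerous at Klf13.

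Klf9 had the only distal region of the family called in all 8 libraries, 1 of 68, against 1.39% of 30351 distal regions. It spanned 2333 bp (chromosome 19, 23134074 to 23136406, GRCm38), with its middle 6.0 kb upstream of the Klf9 start. It lay within 1 kb of the annotated start of the noncoding gene 2410080I02Rik, so it is distal only with respect to protein-coding genes. Percentiles were 77.1 and 69.1 in wild type, 85.9 and 85.5 in NICD, 69.8 and 58.7 in 1-allele and 86.1 and 58.8 in 2-allele glands. In both 1-allele libraries and both 2-allele libraries this region ranked above the Klf9 promoter itself. It was called in all 8 also with 14373 peaks a list. The region is a merged one, and its peaks did not all share a base. The 1-allele peaks, from -6626 to -6336 bp in replicate 1 and from -6078 to -5550 bp in replicate 2, did not overlap. They were joined through peaks of other libraries, such as that of NICD replicate 1 from -7152 to -4820 bp.

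Between NICD and wild type, 11 of the 68 distal regions were found in each NICD library but not in wild type, or 16.2%, near the 14.5% of all distal regions. Of these 5 were at Klf13, 2 at Klf3, 2 at Klf10 and 1 each at Klf5 and Klf6. The reverse was seen once, or 1.47% against 0.689% of all distal regions, in a region 39.3 kb upstream of Klf3 at percentiles of 12 and 11.3. The count rested on both NICD libraries being required: it was 42 without NICD replicate 2 and 17 without replicate 1. With 14373 peaks a list 4 regions separated this way, 3 of them at Klf13 (86.6, 80.0 and 18.3 kb from its start) and 1 at Klf3. The Klf3 region, 61.8 kb from its start, was not among the 11. In the full lists it was also called in wild type, at percentiles of 7.57 and 4.77, and the cut removed those calls. With 5165 peaks no region separated this way. The share of all distal regions is not given for these alternatives, so their counts describe the Klf windows alone.

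Klf13 held more such regions than any other member, but it also had the longest window (152.6 kb) and the most distal regions (15). For those at 80.0, 86.6 and 33.4 kb, the nearest protein-coding start was that of another gene, 57667, 64344 and 11151 bp away. The region at 86.6 kb ran from 86402 to 86897 bp, and a separate one beside it, from 87070 to 87341 bp, was counted as well. Downstream of the gene, 80.0 kb from the start, percentiles were 75.6 and 61.1 in NICD, and no other library called the region. At 86.6 kb they were 81 and 70.6 in NICD with 8.94 in 2-allele replicate 1. At 18.3 kb upstream they were 74.3 and 71.2 in NICD, and no other library called that region. Wild-type replicate 2 had separate, narrower regions beside it, at 17.6 kb upstream (percentile 7.1) and 17.1 kb upstream (21.8). The one at 17.1 kb was also called in NICD, at 1.26 and 14.2. The region at 86.6 kb lay within 1 kb of the start of the noncoding gene Gm39023 and that at 18.3 kb upstream within 1 kb of Gm39024. Inside the gene, 33.4 kb from the start, percentiles were 55.9 and 49.7 in NICD and 44.1 in 2-allele replicate 2. A further region inside the gene, 41.9 kb from the start and 1475 bp wide, was shared by 7 libraries, all but 1-allele replicate 1, and lay within 1 kb of the noncoding Gm27252.

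**Figure D4:**
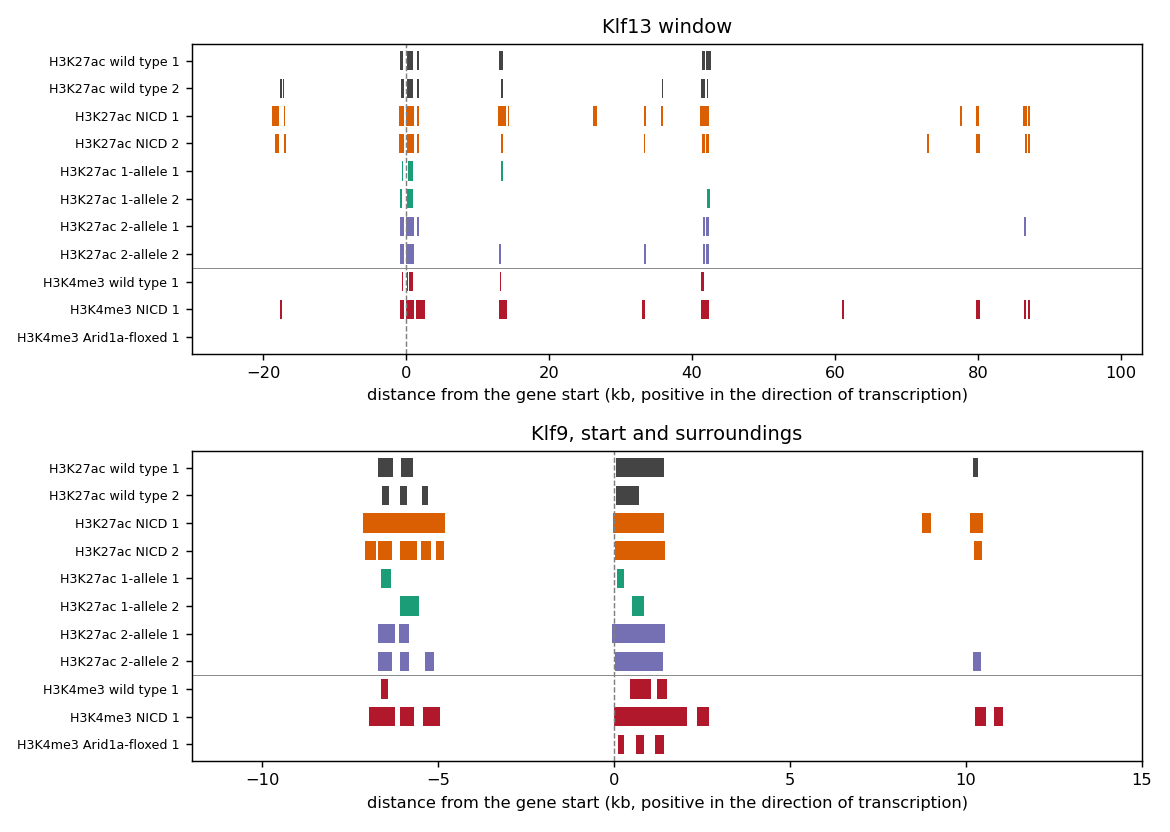
Called peaks (bars) by distance from the gene start (kb, positive in the direction of transcription) in the Klf13 window and around the Klf9 start, a row per library with H3K27ac above and H3K4me3 in red below the line. Near Klf13 the bars about 80.0 and 86.6 kb past the start appear in NICD rows and once in a 2-allele row, and the block upstream of Klf9 appears in all 8 H3K27ac rows.

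The Arid1a comparisons gave shares near the background at distal regions too. Of the 68 regions 21 separated NICD from 1-allele, or 30.9% against 26.1% of all distal regions, with 7 at Klf13, 4 at Klf3, 3 at Klf6, 3 at Klf10 and 1 each at Klf4, Klf5, Klf9 and Klf15. None separated the other way (0.105%). NICD and 2-allele were separated by 13, or 19.1% against 18.6%, with 4 at Klf13, 3 at Klf10, 2 at Klf3, 2 at Klf6 and 1 each at Klf5 and Klf15, and none the other way (0.102%). Without NICD replicate 2 these counts were 55 and 46, and without NICD replicate 1 the count against 2-allele was 22. No share of all distal regions is given for these alternatives.

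Only Klf4 and Klf6 held regions called in both 2-allele and neither 1-allele library, 2 of 68 or 2.94% against 3.87% of all distal regions. The region 17.5 kb downstream of the Klf4 start stood at percentiles of 82.1 and 45.7 in wild type, 68.7 and 29.6 in NICD and 40.5 and 39.1 in 2-allele glands. That 16.2 kb upstream of Klf6 stood at 58.9 and 69.2, 73.9 and 42.6, and 44.4 and 29.9. Both were thus called in every library outside the 1-allele group. None separated 1-allele from 2-allele (0.527%). Without 2-allele replicate 1 the count of regions called in 2-allele and not 1-allele was 7, and without 2-allele replicate 2 it was 6, with no share of all distal regions given for either.

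Peak number in the whole window gave a value per library that could be tested over all 4 groups at once. Klf13 held 8 and 9 peaks in wild type, 15 and 13 in NICD, 3 and 3 in 1-allele and 6 and 6 in 2-allele libraries, with no overlap between groups. Klf6 held 5 and 5, 14 and 9, 1 and 1, and 3 and 4 in the same order, also without overlap. No overlap among the 4 groups was seen for these 2 of the 10 members and for 4.51% of all genes tested, and the order of the groups was that of their list lengths. For both, the exact permutation test of the differences among groups gave p = 0.00952, the smallest this design allows, and an adjusted p of 0.123 (Benjamini-Hochberg over 17608 genes). Klf3 held 5 and 6, 13 and 6, 1 and 1, and 4 and 3 peaks (exact permutation p = 0.019, adjusted p = 0.123), where NICD replicate 2 equalled wild-type replicate 2.

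Thus 3 of 10 members had an unadjusted p under 0.05, against 28.3% of all genes tested, and 0 of 10 had an adjusted p under 0.05, against 0% of all genes. The smallest adjusted p over all genes was 0.123. The calls depended on list length. With 14373 peaks a list the exact permutation test gave p = 0.0286 for Klf13 and 0.257 for Klf6 and for Klf3, so 1 of 10 members stayed under 0.05, against 8.42% of genes. At 5165 peaks the exact test gave p = 0.429 for Klf13, 1 for Klf6 and 0.143 for Klf3, with 0 of 10 members and 0.5% of genes under 0.05. With a library left out, its group has a lone sample that is assumed to vary like the other groups, and the smallest possible p stays at 0.00952, so an unchanged value says nothing of stability. Klf13 was at that limit for all 8 such sets, and Klf6 gave exact permutation p of 0.00952 to 0.0381. Klf3 gave 0.0381 without NICD replicate 1 and 0.00952 without NICD replicate 2, but 0.143 or 0.162 without any of the other 6 libraries. With covered length in place of peak number 6 members had an unadjusted p under 0.05, against 61.3% of genes, and Klf3, Klf6, Klf9 and Klf13, 4 of 10, had an adjusted p under 0.05, against 39.7% of genes. Covered length also carries the unlike peak widths of the 2-allele lists.

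**Figure D5:**
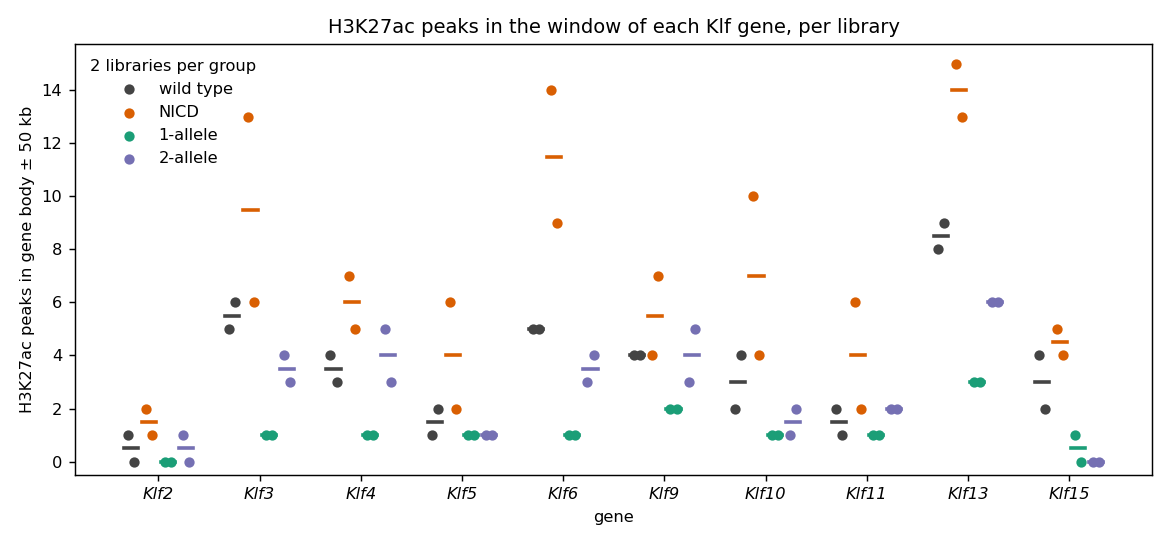
Number of H3K27ac peaks in the gene body plus 50 kb on each side of 10 Klf genes, a point per library and a bar at the mean of the 2 libraries of a group. At Klf13 and Klf6 the groups do not overlap, with NICD highest and 1-allele lowest, and at Klf9 wild type and NICD share a value of 4.

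The other 7 members did not reach p = 0.05 in the exact permutation test. Klf15 held 4 and 2 peaks in wild type, 5 and 4 in NICD, 1 and 0 in 1-allele and 0 and 0 in 2-allele libraries (exact permutation p = 0.0571, adjusted p = 0.17). Klf4 held 4 and 3, 7 and 5, 1 and 1, and 5 and 3 (exact permutation p = 0.0667, adjusted p = 0.188). Klf10 held 2 and 4, 10 and 4, 1 and 1, and 1 and 2 (exact permutation p = 0.114). Klf9 held 4 and 4, 4 and 7, 2 and 2, and 3 and 5 (exact permutation p = 0.229). Klf5, Klf11 and Klf2 gave p of 0.286, 0.343 and 0.429 by the same exact test, with at most 6 peaks in any library.

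Over the 10 windows together there were 36 and 36 peaks in wild type, 82 and 53 in NICD, 12 and 11 in 1-allele and 26 and 26 in 2-allele libraries. Per 10000 peaks of the list these were 17.5 and 19.6, 19.8 and 20.8, 23.2 and 14.5, and 16.9 and 18.1. On that scale the 1-allele libraries held both the highest and the lowest value, and the groups overlapped.

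By a fixed rule the genes whose 8 window counts were nearest to those of Klf13 and Klf6 were named, by distance between log2(count + 1) values over the 8 libraries. Nearest to Klf13 were Cpsf4l (0.285), Wbp2 (0.343) and Unk (0.399). Nearest to Klf6 were Smarca4 (0.297), 1600014C23Rik (0.416) and Rab27b (0.449).

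H3K4me3 was read in 1 library per group, so its values stand side by side without a test. Markers of other cells moved with the NICD library: 6 of 7 fibroblast and muscle, 2 of 7 blood, 1 of 6 endothelial (Kdr), 3 of 5 chief, 3 of 3 neck and 4 of 4 surface pit markers had an H3K4me3 promoter peak there, against 0 of each list in wild type and in the Arid1a-floxed library. Parietal markers numbered 1, 3 and 1 of 6 in wild type, NICD and Arid1a-floxed, and the part of cell mixture in the H3K4me3 values was not tested. Promoter peaks were called for 9 of 10 members in wild type, all but Klf4, for 10 in NICD and for Klf3, Klf5, Klf9 and Klf10 in the Arid1a-floxed library, against 49.9%, 65.3% and 20.7% of all genes. Klf11 led in wild type and NICD, at percentiles of 93.7 and 95.9, and was not called in the Arid1a-floxed library. Klf6, strong for H3K27ac, stood at 14 in wild type and 69.3 in NICD, and its strongest H3K4me3 peak lay past the start, with the middle 282 and 1123 bp downstream. Klf15 stood at 61.3 in wild type and 82.7 in NICD, with widths of 611 and 1699 bp.

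The widest H3K4me3 peak in the Klf windows, 2261 bp in NICD, was at Klf4. It ran from 528 to 2788 bp past the start, with its middle at 1658 bp. Its pileup was 94 and its fold enrichment only 2.72, percentile 50.5. In wild type the Klf4 window held 4 peaks of at most 150 bp, none within 1 kb of the start. Enrichment was counted over a local background of up to 10 kb in the same library, and the part of this background in a low fold at a wide region was not tested. Wide peaks also lay at Klf6 (2103 bp) and Klf9 (2075 bp) in NICD.

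Of the 68 distal H3K27ac regions, 7 (10.3%) overlapped an H3K4me3 peak in wild type, 25 (36.8%) in NICD and 0 in the Arid1a-floxed library, against 7.66%, 37.1% and 2.22% of all distal regions. The region 80.0 kb past the Klf13 start and that at 86.6 kb were among those with H3K4me3 in NICD and not in wild type. Their NICD H3K4me3 peaks stood at percentiles of 71.4 and 1.26, so the call at 86.6 kb was among the weakest of its list. The whole H3K4me3 lists held 17558, 39420 and 5175 peaks in wild type, NICD and Arid1a-floxed. H3K4me3 peaks in the 10 windows numbered 26, 55 and 6 in the same order, and 0, 10 and 0 of these lay outside every H3K27ac region. The part of list length in these numbers was not tested. Of the 10 in NICD 3 were at Klf9, 2 each at Klf13 and Klf15, and 1 each at Klf2, Klf3 and Klf4.

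The rest of the family was read in the same way. Of 16 other Klf and Sp genes, 8 and 8 had an H3K27ac promoter peak in wild type, 10 and 8 in NICD, 6 and 5 in 1-allele and 7 and 8 in 2-allele libraries, set beside 44.8% and 42.6%, 54.3% and 48.9%, 17.2% and 27.1%, and 44.4% and 42.7% of all genes. Klf7, Sp1, Sp3 and Sp4 were called in all 8, 4 of 16 against 14.4% of all genes. Klf12, Klf14, Klf17, Sp5, Sp8 and Sp9 were called in none. Sp6 was the only member of that list called in both NICD libraries and no wild-type, 1-allele or 2-allele library, and it was not called for H3K4me3. The 10 members were named with earlier results known, so the contrast with the other 16 is a description.

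Genes for 12 partners of Klf proteins were called in 11 and 11 of 12 in wild type, 11 and 11 in NICD, 5 and 7 in 1-allele and 9 and 11 in 2-allele libraries. The shares of all genes were 44.8% and 42.6%, 54.3% and 48.9%, 17.2% and 27.1%, and 44.4% and 42.7% in the same order, also lowest in 1-allele. Ep300 and Kat2b, acetyltransferases, Hdac2, a deacetylase, and Fbxw7 and Wwp1, ubiquitin ligase components that act on Klf5, were called in all 8. That is 5 of 12, against 14.4% of all genes. Sin3a and Sin3b, the co-repressors of the Klf9, Klf10, Klf11 and Klf13 group, were found in both NICD libraries but in neither of the 1-allele group, as were Hdac1 and Fhl3, 4 of 12 against the 19.1% of all genes given above. Sin3b and Fhl3 were also called in both 2-allele and neither 1-allele library, 2 of 12 against 12.2% of all genes. Ctbp1, a partner of Klf3, was called in all but 1-allele replicate 1, and Ctbp2 in none of the 8.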

How the data were processed

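H3K27ac and H3K4me3 were measured by ChIP-seq in 11 libraries. The submitters' processing notes name Bowtie2, MACS2 and GRCm38 (mm10). According to the headers of 9 of the lists, MACS 2.0.10.20131216 was run per library and with no control, duplicates removed, a q-value threshold of 0.05, a local background of up to 10 kb and an effective genome size of 2.7 Gb. In these deposited lists each peak carries the authors' fold enrichment, its pileup signal and, as −log10 values, its p-value and q-value. These scores are the authors' and served only to rank or filter peaks within a list. The 2-allele lists hold positions only, and their file order was used as the order of strength. The antibody for H3K4me3, not given in the sources used here, is unknown.

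Peaks on the 19 autosomes, X and Y were used, and regions were merged at an overlap of 1 bp. Gene starts came from RefSeq promoters (17492 genes), from the gene end with H3K4me3 (2581) or, where neither decided, from both ends (1814). Window peak numbers were tested by an exact permutation test over all ways to assign the libraries to 4 groups of 2, checked on simulated data, with Benjamini-Hochberg adjustment over 17608 genes with a peak. Alternatives were the promoter distance, either gene end as start, equal list lengths, a −log10 q-value of at least 5, each library left out, flanks of 20 and 100 kb, covered length and a replicate block. The members, lists and tests were chosen with earlier results of these data known. Every member was named, other Klf, Sp and partner genes as lists and where they separate groups, other genes where their start lies within 1 kb of a described region, and for Klf13 and Klf6, the members with the most regions, the 3 genes nearest in window counts. Results were computed with Python 3.11.15, numpy 2.4.6 and pandas 2.3.3.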

Additional observations from a re-analysis of the deposited data

How the results depend on the processing

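Of 254 recomputed counts 206 stayed within 1.5 times the count reported and 48 did not. The promoter and distal counts below have no share of all genes or of all distal regions at the same setting beside them. With lists of 5165 peaks, 1 Klf promoter each separated NICD from wild type, 1-allele from NICD, 2-allele from NICD and 1-allele from 2-allele, 0 separated NICD from 1-allele, all distal counts were 0 and 0 members had an unadjusted p under 0.05 in the window test. With 14373 peaks, 1 promoter and 4 distal regions separated NICD from wild type, 0 distal regions the reverse, 4 distal regions NICD from 1-allele, 2 NICD from 2-allele, and 1 member had p under 0.05. At the stricter q-value, without the unscored 2-allele lists, 1 promoter separated NICD from wild type and 2 NICD from 1-allele, 0 distal regions wild type from NICD, and 0 members had p under 0.05 because 3 groups allow no p below 0.0667. With either gene end as start 0 promoters separated NICD from 2-allele, since the Klf15 start lies over 1 kb inside its gene record. With 20 kb flanks the distal counts were 4 (NICD, not wild type), 0 (reverse), 9 (NICD, not 1-allele) and 4 (NICD, not 2-allele), and with 100 kb they were 20, 36 and 24 for the NICD counts, with 9 members at p under 0.05 (41.6% of genes). Covered length gave 6 such members (61.3% of genes) and 4 with an adjusted p under 0.05 (39.7% of genes).

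Leaving out each library in turn gave, for promoters, 0 to 1 for NICD and not wild type, 1 to 2 for NICD and not 1-allele, 1 to 2 for NICD and not 2-allele, 0 to 1 for 2-allele and not 1-allele and 0 to 1 for 1-allele and not 2-allele. For distal regions it gave 11 to 42 for NICD and not wild type, 1 to 3 for the reverse, 21 to 55 for NICD and not 1-allele, 13 to 46 for NICD and not 2-allele, 0 to 1 for 2-allele and not NICD and 2 to 7 for 2-allele and not 1-allele. Members with p under 0.05 numbered 2 to 4. Replicate deviations correlated between groups at -0.02 to 0.10, so the numbers do not pair the samples. With the replicate block, 2 members had an exact permutation p under 0.05, Klf6 and Klf13 at 0.0417, the smallest it allows, and 0 an adjusted one. Where no cause is named above, the cause was not tested. A peak that was not called does not show an absent mark, and the depth of the 2-allele libraries is unknown.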
